A study of Danio rerio with 6 samples.

Results

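The genes described here make, release or capture the Hedgehog signal: the ligand genes shha, shhb and ihha, the ligand-processing and release genes hhat, disp1 and scube2, and the co-receptor genes boc, cdon, gas1a and gas1b. They were chosen by name, and 10 of 10 were present among the 31901 gene rows of the deposited count table, each on a single row. RNA came from regenerating caudal fins of zebrafish (Danio rerio) that carry the shha:GFP reporter, in which green fluorescent protein marks cells expressing shha. Both groups carry it, so there is no group without the transgene, and it served to choose the tissue: the fin from the reporter domains outward. Fish were injected into the body cavity 4 days after amputation, and fins were taken 5 hours after the injection. The vehicle group (3 libraries) received buffer with 50% PEG-400, 5% propylene glycol and 0.5% Tween-80. The BMS group (3 libraries) received 40 mg/kg BMS-833923, a small-molecule inhibitor of Smoothened, in the same buffer. Each library is a pool of 4 fin regenerates, and the age and sex of the fish are not stated in the labels. The study's stated purpose was to identify transcripts downstream of Sonic hedgehog.

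Hedgehog proteins are made as precursors that cut themselves and acquire a cholesterol at the cut, while the acyltransferase Hhat adds a palmitate to the other end. Dispatched and the secreted Scube proteins let this fatty ligand leave the producing cell. On receiving cells Boc, Cdon and Gas1 bind the ligand and help it to block Patched, which frees Smoothened to activate the Gli transcription factors. In the regenerating fin, shha is known from basal epidermal cells that lie next to bone progenitors, and Hedgehog signalling there is known for its part in the branching of the fin rays. BMS-833923 acts at Smoothened, below all 10 gene products. The comparison therefore asks whether transcript levels of the ligand and reception genes moved when the pathway was blocked downstream of them.

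Total counts ranged from 16978747 (BMS replicate 2) to 22659275 (BMS replicate 4), and levels are given as CPM, read counts scaled to a common library size with edgeR's TMM factors. Of the 10 genes, 9 passed the filter on low counts and were tested with 18541 rows in all. Of the 11 basal epidermis markers, 11 had a mean level of at least 1 CPM, as did 9 of 9 superficial epidermis, 9 of 10 osteoblast and 11 of 11 fin mesenchyme markers. Nerve and Schwann cell markers were near the detection limit (0 of 6 at that level, and plp1b at 0 in all 6 libraries). BMS replicate 2 stood apart in that 8.86% of its reads were from ribosomal protein genes, against 3.96% to 6.57% elsewhere. With TMM scaling its superficial epidermis markers also had the highest sum, 12910 CPM against 6878 to 9907 CPM. Divided by total counts instead, that sum is below those of vehicle replicate 4 and BMS replicate 4. A vehicle library and the BMS library that shares its replicate number (2, 3 or 4) resembled each other. They are taken as a pair, and estimates are given also from a fit with the replicate number as a block. The superficial epidermis sum was higher in BMS in each pair, from 8265, 6878 and 9123 CPM in vehicle replicates 2, 3 and 4 to 12910, 7905 and 9907 CPM. With the block 9 of its 9 markers had a positive log2 fold change (median 0.31, beside -0.02 over all rows). The quasi-likelihood test called 0 of them, and their part in the levels below was not tested.

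The Smoothened inhibitor was followed by no called change in any of the 9 tested ligand, release and co-receptor genes. In edgeR's quasi-likelihood test 0 of 9 had an adjusted p under 0.05, with or without the replicate block, and 0 of 9 had an unadjusted p under 0.05 in either fit. DESeq2, limma-voom and the likelihood ratio test also called 0 of 9, each with and without the block. Over all rows the quasi-likelihood test and limma-voom each called 0%, with or without the block. In the quasi-likelihood test an unadjusted p under 0.05 was reached by 1.07% of rows without the block and 7.05% with it. Of the rows to which it gave an adjusted p, DESeq2 called 0.00539% without the block and 0.482% with it, and the likelihood ratio test called 0.00539% and 0.561%. Vehicle and BMS libraries overlapped in CPM for 9 of 9 genes, where 1.76% of all rows were lower and 2.16% higher in BMS without overlap. In bulk tissue, fewer cells of a type and less RNA per cell cannot be told apart, so none of the levels below is a level per expressing cell. The labels do not say that pools came from separate experiments, so the p-values reflect only how far these pools differ.

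**Figure D1:**
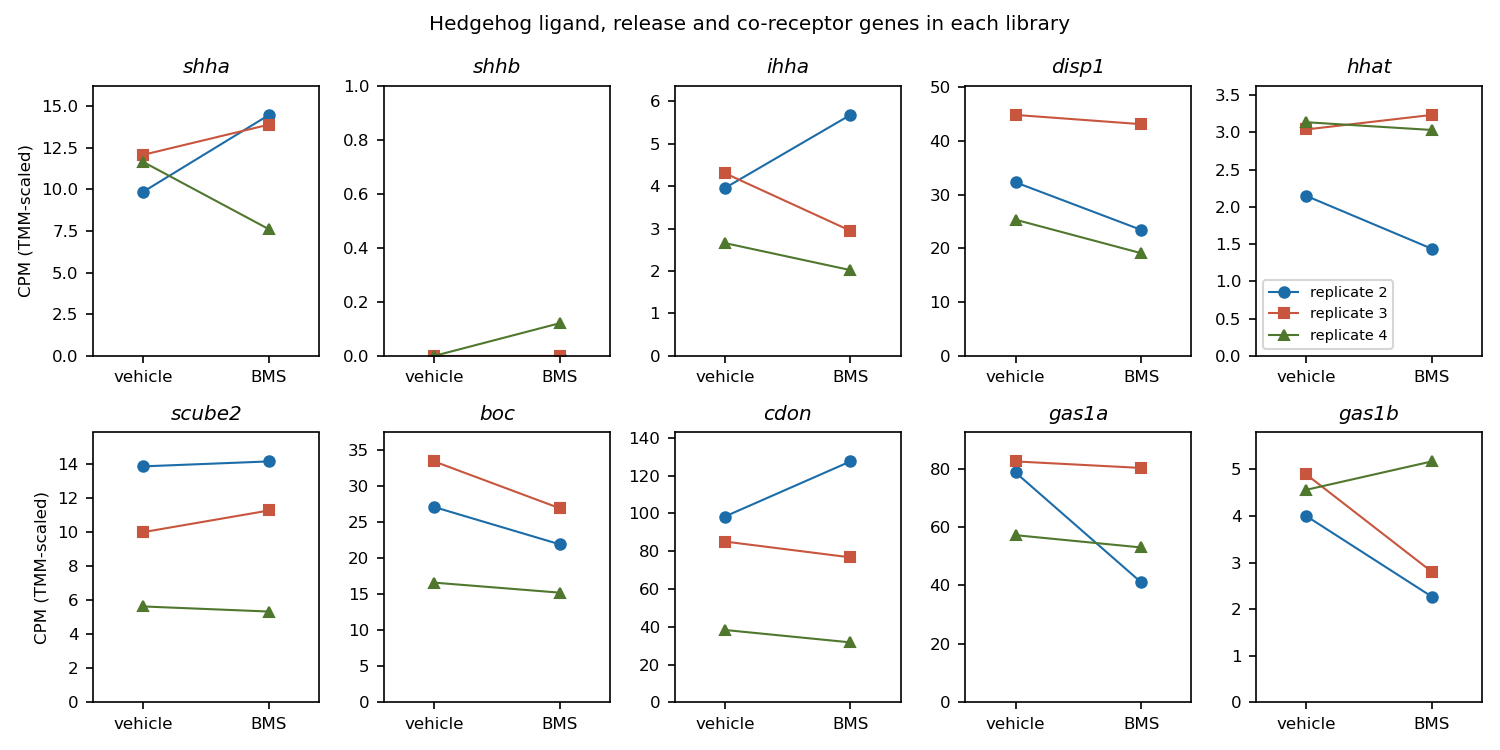
Level of each gene (CPM, TMM-scaled, axis from 0) in the vehicle and BMS libraries, with lines joining libraries of the same replicate number. For shha the lines of replicates 2 and 3 go up and that of replicate 4 goes down, while scube2 and cdon keep replicate 2 above replicate 3 and replicate 3 above replicate 4 in both groups.

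Of the ligand genes, shha was detected in 6 of 6 libraries. It was at 9.86, 12.1 and 11.6 CPM in vehicle replicates 2, 3 and 4 and at 14.5, 13.9 and 7.60 CPM in BMS replicates 2, 3 and 4. With TMM scaling the BMS libraries enclose the vehicle range on both sides, with replicates 2 and 3 above every vehicle library and replicate 4 below them. The place of BMS replicate 2 above every vehicle library depends on that scaling and is lost when reads are divided by total counts. The group means were 11.2 ± 1.17 and 12.0 ± 3.81 CPM (SD, n = 3 libraries each). The log2 difference within pairs was 0.55, 0.20 and -0.61 in pairs 2, 3 and 4. The fit with the block placed the change between a fall of 29.3% and a rise of 50.9% (95% interval), around an estimate of 3.28% (edgeR quasi-likelihood, adjusted p = 0.961). In log2 units that interval was -0.50 to 0.59, and without the block it was -0.61 to 0.80. Summed basal epidermis markers, from the layer in which shha is known, were at 24460, 22210 and 16620 CPM in vehicle replicates 2, 3 and 4 and at 28730, 21580 and 14220 CPM in the BMS replicates. The keratin gene krt5 made up 79.6% to 87.6% of that sum. Divided by total counts instead, the sum of BMS replicate 2 falls below those of vehicle replicates 2 and 3. Counted singly, 5, 5 and 3 of the 11 markers were higher in BMS in pairs 2, 3 and 4, and their part in the shha values was not tested.

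The other Sonic hedgehog paralog of zebrafish, shhb, known from the embryonic floor plate as tiggywinkle hedgehog, had 0 reads in 5 of the 6 libraries. BMS replicate 4 held 3 reads. A count of 0 allows up to 0.119 to 0.227 CPM in a library (3 counts, covering counting error only), and the 3 reads of BMS replicate 4 correspond to 0.121 CPM, so no fold is given. The remaining ligand genes, ihhb and dhh, had at most 2 and 1 reads in any library. Reads of the ligand family thus came almost wholly from shha and ihha, which had 188 to 293 and 50 to 102 reads per library.

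Indian hedgehog, which controls cartilage and bone maturation, is represented by ihha. It was at 3.95, 4.304 and 2.66 CPM in vehicle replicates 2, 3 and 4 and at 5.68, 2.95 and 2.02 CPM in BMS. With TMM scaling the highest and the lowest of the 6 values are both BMS libraries. Divided by total counts instead, the highest is vehicle replicate 3. The log2 fold change was -0.05 ± 0.42 (SE) without the block and -0.14 ± 0.28 with it (edgeR quasi-likelihood, adjusted p = 1 and 0.888), and pairs 2, 3 and 4 differed by 0.52, -0.54 and -0.39. With TMM scaling osteoblast markers summed to 5851 CPM in BMS replicate 2 and 3041 CPM in BMS replicate 4, against 3872 to 4823 CPM in vehicle. The collagen gene col10a1a made up 88.5% to 91.7% of that sum. Divided by total counts instead, the sum of BMS replicate 2 falls within the vehicle range. Of the 10 markers, 6, 2 and 3 were higher in BMS in pairs 2, 3 and 4. These counts include bglap, which was not tested. It had 0 to 3 reads per library, with equal reads in both libraries of pairs 3 and 4. In pair 2, where ihha was higher in BMS, the tested osteoblast markers went both ways, from -1.50 log2 units (runx2b) to 0.82 (ifitm5). The part of these markers in the ihha values was not tested. The count of shha reads per ihha read does not depend on library scaling. It was 2.49, 2.80 and 4.37 in vehicle and 2.55, 4.71 and 3.76 in BMS, with overlapping groups (two-sided exact permutation p = 0.7, where the smallest possible p is 0.1).

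Among the processing and release genes, disp1 encodes Dispatched, the membrane protein that exports the lipid-bearing ligand. It was at 32.3, 44.9 and 25.4 CPM in vehicle replicates 2, 3 and 4 and at 23.5, 43.1 and 19.1 CPM in BMS. The drop was seen in 3 of 3 pairs (log2 differences of -0.46, -0.06 and -0.41), while the groups overlapped. Its log2 fold change was -0.26 ± 0.37 (SE) without the block and -0.31 ± 0.17 with it (95% interval -0.68 to 0.07, edgeR quasi-likelihood adjusted p = 0.694). In the fit without the block the interval was -1.07 to 0.56, and the size of the fold change depended on single libraries. It was -0.69 without BMS replicate 3, -0.02 without vehicle replicate 3 and -0.04 without BMS replicate 4.

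The palmitoyltransferase gene hhat was at 2.15, 3.04 and 3.14 CPM in vehicle replicates 2, 3 and 4. In BMS it was at 1.44, 3.23 and 3.03 CPM. Both libraries of number 2 lie below the other 4, and outside pair 2 (-0.56) the paired log2 differences were 0.09 and -0.05. With the block the estimate was -0.14 ± 0.26 (SE, edgeR quasi-likelihood adjusted p = 0.874). It had 19 to 79 reads per library, and its interval with the block runs from a fall of 40.1% to a rise of 37.0%.

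Scube2, a secreted protein that takes up the ligand at the surface of the producing cell, is the product of scube2. Its gene was at 13.9, 10.0 and 5.63 CPM in vehicle replicates 2, 3 and 4 and at 14.2, 11.3 and 5.34 CPM in BMS. The values of a pair are close, with log2 differences of 0.03, 0.17 and -0.08, and the pairs are far apart. With the block the log2 fold change was 0.04 ± 0.18 (95% interval -0.37 to 0.46, edgeR quasi-likelihood adjusted p = 0.951). Without it the interval was -0.91 to 1.02.

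Of the co-receptor genes, boc encodes an immunoglobulin-family membrane protein that binds the ligand. It was at 27.1, 33.5 and 16.6 CPM in vehicle replicates 2, 3 and 4 and at 22.0, 27.0 and 15.2 CPM in BMS. Each BMS library was below the vehicle library of its number, by -0.30, -0.31 and -0.13 log2 units, and the groups overlapped because the pairs differed more. The estimate with the block was -0.25 ± 0.16 (95% interval -0.62 to 0.12, edgeR quasi-likelihood adjusted p = 0.699). The interval without the block was -1.03 to 0.49.

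The related co-receptor gene cdon was at 98.3, 85.1 and 38.3 CPM in vehicle replicates 2, 3 and 4. In BMS it was at 128, 76.7 and 31.8 CPM, up in pair 2 (0.37 log2 units) and down in pairs 3 and 4 (-0.15 and -0.27). Its estimate was near 0 and its sign depended on the fit: 0.09 ± 0.50 without the block and -0.01 ± 0.17 with it (edgeR quasi-likelihood, adjusted p = 1 and 0.985). With the block its change lay between a fall of 24.6% and a rise of 30.1%.

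Gas1 proteins are held in the membrane by a lipid anchor and bind the ligand with Patched. The gene gas1a was at 78.7, 82.5 and 57.2 CPM in vehicle replicates 2, 3 and 4 and at 41.1, 80.2 and 53.0 CPM in BMS. The 3 pairs were all lower in BMS, but the log2 difference was -0.94 in pair 2 against -0.04 and -0.11 in pairs 3 and 4. BMS replicate 2, which stood apart in its share of ribosomal protein reads, thus carries most of the estimate of -0.36 ± 0.20 with the block (edgeR quasi-likelihood adjusted p = 0.694). Without both libraries of number 2 the estimate was -0.05 ± 0.12, and without BMS replicate 2 the fit without the block gave -0.13.

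Its paralog gas1b was at 4.00, 4.90 and 4.56 CPM in vehicle replicates 2, 3 and 4 and at 2.27, 2.81 and 5.17 CPM in BMS. BMS replicates 2 and 3 lie below every vehicle library and BMS replicate 4 lies above them. The log2 differences were -0.80, -0.80 and 0.18 in pairs 2, 3 and 4, and the estimate with the block, -0.45 ± 0.27, was the lowest of the 9 (95% interval -1.07 to 0.17, edgeR quasi-likelihood adjusted p = 0.695). The interval without the block was wider, at -1.20 to 0.44. The gene had 30 to 128 reads per library. Without both libraries of number 4 the estimate was -0.81, and it was not called.

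Across the 9 tested genes, 6 had a negative log2 fold change without the block and 7 with it, where 48.5% and 52.2% of all rows were negative. Their median was -0.10 without the block and -0.14 with it, beside 0.01 and -0.02 over all rows. Lower values in 3 of 3 pairs were seen for disp1, boc and gas1a, which is 3 of 9 genes, beside 17.3% of all rows, and 0 of 9 were higher in 3 of 3 pairs, beside 14.2% of all rows. Under total-count scaling 9 of 9 were negative, but that scaling moved the median of all rows to -0.10, and 6 of 9 lay below that median, as with TMM.

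**Figure D2:**
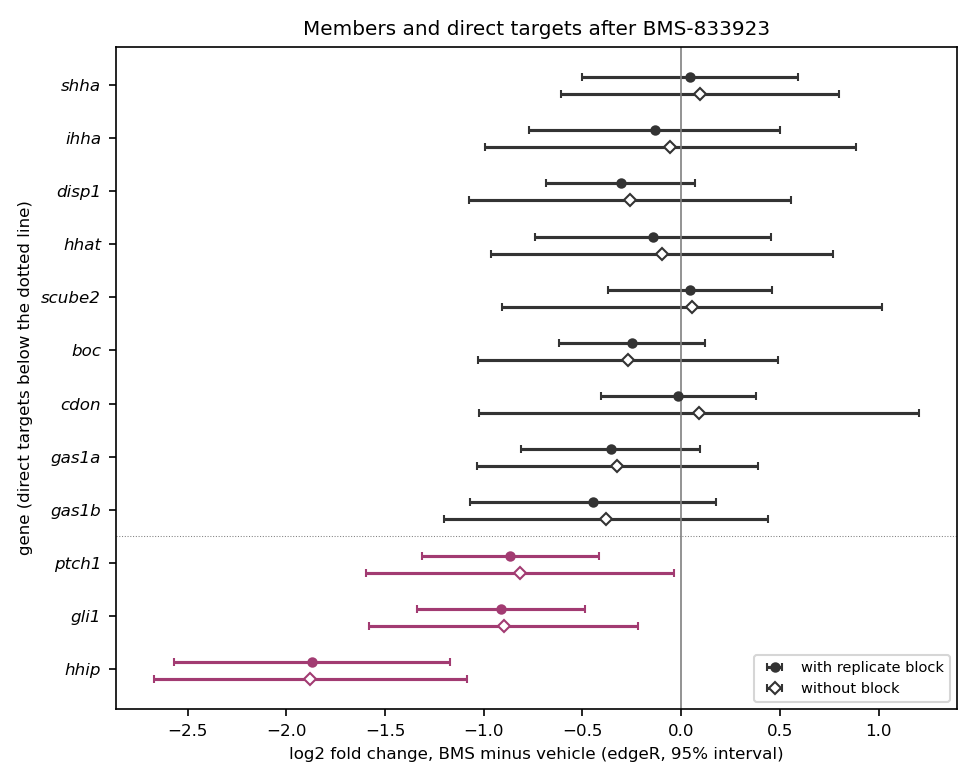
Log2 fold change (BMS minus vehicle) with its 95% interval from edgeR with the replicate block (filled circles) and without it (open diamonds), for the 9 tested genes and, below the dotted line, the direct targets. The intervals of the 9 genes all include 0, and with the block those of ptch1, gli1 and hhip lie below 0.

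For 9 of 9 genes the replicate number, which has 3 levels, took a larger share of the variation than treatment, which has 2. The medians over all rows, 71.0% and 8.27%, go the same way, so nothing particular to the 9 genes is read from this count. The number accounted for 99.1% of the variation of log2 CPM over the 6 libraries for scube2, 96.2% for cdon, 89.5% for boc, 84.5% for disp1, 84.4% for hhat and 74.8% for ihha. It accounted for 46.7% for gas1a, 41.4% for gas1b and 39.0% for shha. The median over all rows was 71.0%, and a share as high as that of scube2 was reached by 0.405% of them. Treatment accounted for 0.135% of the variation of scube2 and 0.0111% of that of cdon, beside a median of 8.27% over all rows. The highest treatment shares among the 9 were those of gas1a and gas1b, at 23.5% and 30.0%. Shares at least as high were reached by 19.6% and 13.7% of all rows. For shha, 60.5% of the variation was left to neither treatment nor number, against a median of 15.1%.

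Tested as a difference between numbers with treatment in the fit, a comparison chosen after the values had been seen, 4 of the 9 genes passed over all rows. They were cdon and scube2 (edgeR quasi-likelihood adjusted p = 0.0265 each), disp1 (0.0312) and boc (0.0377). This test called 19.1% of all rows. With total-count scaling it called 0 of the 9 genes (lowest adjusted p = 0.0659) and 0 rows in all, while limma-voom and the likelihood ratio test each called 4 of the 9, beside 18.8% and 36.8% of all rows. With TMM scaling all 4 genes were lowest in replicate 4 of both groups, which for disp1 depends on that scaling. Fin mesenchyme markers, which include the actinodin genes and1 and and2 of the fin's fibrous skeleton, summed to 11050, 8463 and 3970 CPM in vehicle replicates 2, 3 and 4 and to 11810, 5985 and 3021 CPM in BMS. Their sums and those of the basal epidermis markers were also lowest in replicate 4 of both groups. With TMM scaling the same was true of the osteoblast, endothelium, nerve and red blood cell sums, but not of the superficial epidermis, leukocyte, pigment cell and muscle sums. For the nerve and red blood cell sums of the BMS group this depends on that scaling, and the nerve sums were near the detection limit. Taken singly, 6 of the 11 fin mesenchyme markers and 9 of the 11 basal epidermis markers were lowest in replicate 4 of both groups. So were 2 of 10 osteoblast, 2 of 6 endothelium, 1 of 6 nerve and 2 of 4 red blood cell markers. In contrast, msx1b, tph1b and itga6b were highest in replicate 4 of both groups. The part of any list in these differences was not tested.

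**Figure D3:**
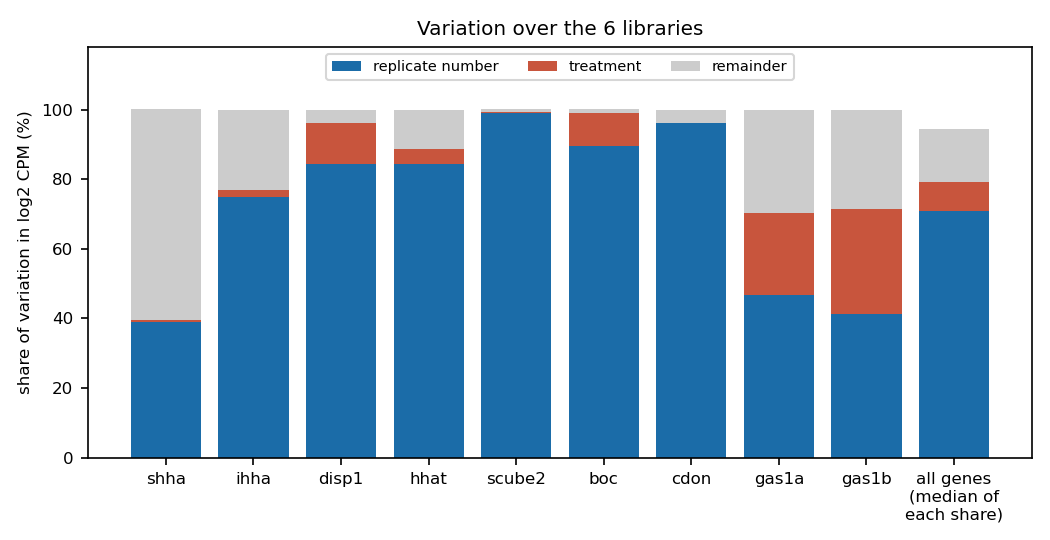
Share of the variation in log2 CPM over the 6 libraries (percent, stacked from 0) that goes with the replicate number, with treatment, or with neither, for the 9 tested genes and as the median of each share over all tested rows (these 3 medians need not add to 100%). The number takes 99.1% for scube2 and 39.0% for shha, and treatment takes 30.0% for gas1b.

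The patterns fell into a few resembling pairs. Likeness was measured as the root mean square difference of centred log2 CPM over the 6 libraries, in log2 units. The closest pairs were disp1 with boc (0.200) and scube2 with cdon (0.204), a release gene with a co-receptor gene in each case, and the most unlike were cdon and gas1b (1.07). The paralogs gas1a and gas1b differed by 0.470, more than gas1a did from disp1 (0.242). Outside the group, rows with a mean of at least 1 CPM and at least the same spread were compared. Those nearest to cdon were the laminin gene lamb1a (0.0587), the adhesion receptor gene adgra3 (0.0942) and the anchoring fibril collagen gene col7a1 (0.0983). Of the 3 nearest to shha, 2 carry gene symbols, cbarpb (0.136) and the transcription factor gene sp9 (0.152). The nearest to ihha with a symbol were epc2 (0.0736) and sox7 (0.112). The nearest row was zdhhc8b for disp1 (0.0709), plekha8 for hhat (0.0428), sardh for scube2 (0.0675) and zfp36l1b for boc (0.0614). For gas1a it was pip5k1ab (0.0632), and for gas1b si:dkey-15h8.15 (0.128). With 6 libraries and 10339 candidate rows for shha, close matches can be found without any relation between the genes. How close a match an arbitrary pattern would have was not tested, and these are descriptions of these libraries.

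The lack of a called change was set against 3 direct targets of the pathway (ptch1, gli1 and hhip), whose fall was known from earlier results of these data. The gene of the ligand-trapping membrane protein Hhip (hhip) was at 15.1, 13.1 and 9.40 CPM in vehicle replicates 2, 3 and 4 and at 1.97, 3.99 and 4.16 CPM in BMS, so that the groups did not overlap. Its log2 fold change with the block was -1.87 ± 0.31 (SE), with an adjusted p of 0.342 by edgeR's quasi-likelihood test and 0.000112 by DESeq2. DESeq2 with the block called 2 of the 3 targets lower (gli1 and hhip) and 0 of the 9 ligand, release and co-receptor genes in either direction, where it called 0.141% of rows lower and 0.341% higher. In the fit with the block the estimate of hhip lies below the 95% interval of each of the 9 genes. The estimates of ptch1 (-0.87) and gli1 (-0.91) lie below that of each but gas1b. In the fit without the block, hhip (-1.88) again lies below each interval. There ptch1 (-0.82) and gli1 (-0.90) lie below that of shha only. These comparisons leave out the targets' own intervals, which with the block reach up to -0.42 for ptch1 and -0.48 for gli1, within those of several of the 9 genes.

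The difference between a target and a ligand or reception gene was compared directly, as the ratio of their reads within a library, which no scaling can move. There were 1.53, 1.09 and 0.809 hhip reads per shha read in vehicle replicates 2, 3 and 4, against 0.136, 0.288 and 0.548 in the BMS libraries. The groups did not overlap, and the mean log2 ratio differed by -1.99 (BMS minus vehicle), given with no test because the fall of hhip was known. Reads of ptch1, the receptor gene, per shha read were 3.21, 2.95 and 1.95 in vehicle and 0.890, 1.84 and 1.66 in BMS. Of the 27 ratios of the 3 targets to the 9 genes, 24 were lower in BMS in 3 of 3 pairs and 18 did not overlap between groups. Each of the 3 targets was itself lower in 3 of 3 pairs, and the ratios share numerators and denominators. The 27 are therefore not separate observations, and for the count by pairs no share over all rows was taken.

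The same ratios were taken to all rows, and nothing particular to the 9 genes is read from them. The ratio of hhip to 9 of the 9 genes was lower without overlap, as it was to 93.8% of all rows with reads in every library. For gli1 this held for 5 of 9 and 40.1% of rows, and for ptch1 for 4 of 9 and 25.1%. The exceptions for gli1 were hhat, scube2, cdon and gas1b, and its ratio to each of these but gas1b was lower in 3 of 3 pairs.

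**Figure D4:**
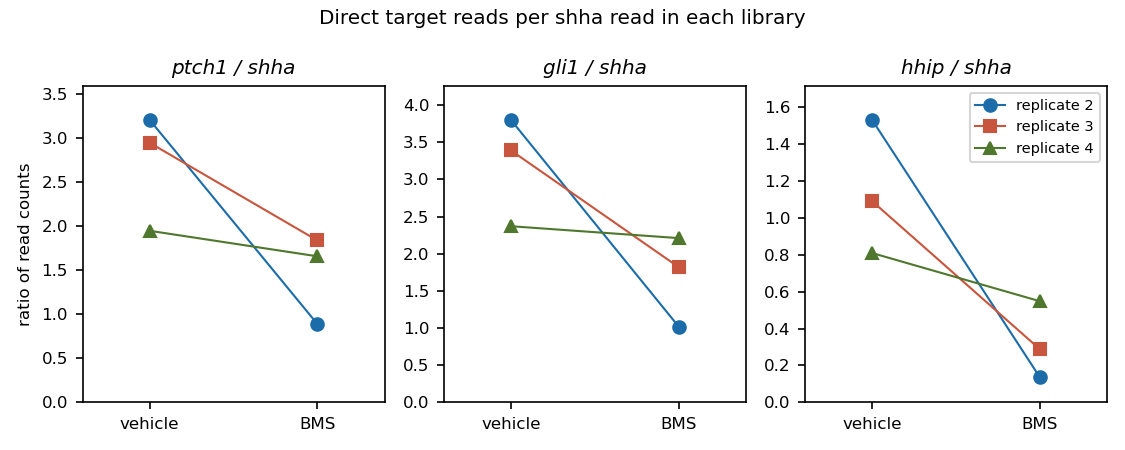
Reads of each direct target per shha read (ratio of counts, axis from 0) in vehicle and BMS, with lines joining libraries of the same replicate number. All 3 BMS libraries lie below all 3 vehicle libraries for hhip (0.136 to 0.548 against 0.809 to 1.53), ptch1 and gli1.

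Other genes of ligand release and capture came from a list of 25 paralogs, glypicans, megalin receptors and heparan sulfate polymerases, of which 23 were in the table and 14 were tested. None of the 14 was called by edgeR's quasi-likelihood test with or without the block, or by DESeq2 with the block, which gave lrp2a, gpc2 and gpc6a no adjusted p. With the block 10 of 14 were negative, with a median of -0.19 beside -0.02 over all rows, and 2 of 14 had an unadjusted p under 0.05. The lowest was scube3, a paralog of scube2, at 14.7, 34.3 and 18.1 CPM in vehicle replicates 2, 3 and 4 and at 8.40, 26.4 and 10.2 CPM in BMS. Its 3 pairs were all lower (-0.81, -0.38 and -0.82), as were those of 17.3% of all rows. Its log2 fold change of -0.66 ± 0.18 with the block did not pass (edgeR quasi-likelihood adjusted p = 0.599). The highest was the glypican gene gpc6a, at 0.84 ± 0.30 (adjusted p = 0.679), from 19 to 46 reads per library. Among the tested glypican genes, which encode heparan sulfate proteins of the cell surface, gpc4 and gpc1b had values of -0.14 and -0.21. The heparan sulfate polymerase genes ext2 and ext1b were at 0.02 and -0.39. Of the ligand and processing paralogs, ihhb, dhh, hhatla, hhatlb and disp2 had at most 5 reads in any library. Of the 7 transducer genes, which include smo and the gli2 and gli3 genes, 6 were negative with the block (median -0.21) and 0 were called by the same tests. Of these 7, 5 were lower in 3 of 3 pairs and 1 was higher, beside 17.3% and 14.2% of all rows.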

How the data were processed

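The authors deposited whole-number read counts per gene row for 6 libraries, and a normalized signal on a CPM scale for 11549 rows. In the latter each value is a deposited count times a constant per library (100% whole within 0.001 of a read), and it holds 6 of the 10 genes; tests used the counts. Per the submitters' processing notes, the build was GRCz11 and the tools included HTSeq 0.6.1, TopHat2 2.1.1, edgeR 4.3.2 and Bowtie2 2.33. No source used here states the annotation or the strand setting, so reads of overlapping antisense genes cannot be told apart.

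Rows were tested with edgeR 4.0.16's quasi-likelihood F test (R 4.3.3; TMM, filterByExpr, robust=TRUE, two-sided, Benjamini-Hochberg over 18541 rows, threshold 0.05), with group as the only term. SEs and 95% intervals are Wald values from that fit. DESeq2 1.42.0, limma-voom (limma 3.58.1), the likelihood ratio test, other scalings and filters, and omitted libraries were alternatives. Log2 CPM uses 0.5 added reads. Fits were also run on simulated data in which differences between replicate numbers were drawn independently for each gene. Such data are simpler than these libraries, and no result here rests on that check. Libraries within a group differed by more than sampling error (chi-square over its degrees of freedom was 32.9 to 132).

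Deviations from group means correlated across genes at 0.555, 0.523 and 0.588 for equal replicate numbers and at -0.474 to -0.142 otherwise, so the numbers were taken as pairs. That pairing comes from the data, not from the labels. Because each group was centred on its own mean, positive values for equal numbers push the others below 0. The negative values are therefore not separate evidence for the pairing. In the labels, the compound number differs in its final digit among the 3 BMS libraries. They were taken as 1 treatment, since the series design gives only BMS-833923. The genes and lists were chosen with earlier results of these data known. All 10 genes were named, with the paralogs and extremes of the list of other genes, the targets, of which 1 is not reported here, and, for likeness, the nearest rows, up to 3 for each gene, a number chosen after their values were seen.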

Additional observations from a re-analysis of the deposited data

How the results depend on the processing

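No setting called any of the 9 genes, over 22 alternatives each, and 172 of their 198 log2 fold changes kept their sign. Most of these alternatives called 0 rows in all, so the lack of a call there says nothing particular to the 9 genes. The alternatives that called any row are given in the next paragraph. With the replicate block the sign of cdon turned, to -0.0141 by edgeR's quasi-likelihood test, -0.0212 by DESeq2, -0.0141 by the likelihood ratio test and -0.0116 by limma-voom. It was also -0.0181 by limma-voom without the block. The block changed no other call or sign among the 9. Total-count scaling gave cdon -0.0879, scube2 -0.0789 and shha -0.0516, and no filter gave scube2 -0.0161. With the block and without both libraries of number 2, cdon was at -0.19, shha at -0.18 and hhat at 0.0408. Without both of number 3, shha was at -0.0639, scube2 at -0.0539 and ihha at 0.0468. With 1 library left out, ranges crossed 0 for cdon (-0.46 to 0.46), hhat (-0.29 to 0.18), ihha (-0.55 to 0.23), scube2 (-0.25 to 0.37) and shha (-0.0647 to 0.34). They stayed below 0 for disp1 (-0.69 to -0.02), boc (-0.51 to -0.04), gas1a (-0.63 to -0.13) and gas1b (-0.82 to -0.14). The cause of these turns was not tested.

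Over all rows the count of changed genes, 0 in the quasi-likelihood test, was 1 by DESeq2 and 1 by the likelihood ratio test. With the replicate block it was 72 by DESeq2 and 104 by the likelihood ratio test. When both libraries of number 2, 3 or 4 were left out, the blocked quasi-likelihood count was 9, 392 or 12. The count of the 9 genes that differ between replicate numbers, 4, was 0 with total-count scaling, an alternative chosen after seeing the data. Depth limits shhb, ihhb and dhh, which could not be compared.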
